A study of Caenorhabditis elegans with 4 samples.

Results

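Poly(A) RNA from *C. elegans* larvae in the fourth larval stage (L4) was compared between cultures that stand at different points of that stage. The 4 libraries of the series are 2 replicates of mock and 2 of *xrn-2(RNAi)*, and all 4 enter the comparison: both replicate 2 libraries were set against both replicate 1 libraries, which makes 2 libraries a side. All animals were wild-type N2, kept at 20°C and fed between L1 and L4 either on bacteria producing dsRNA of *xrn-2*, which encodes a nuclear 5' to 3' exoribonuclease, or, for mock, on bacteria with the vector that has no insert. The *xrn-2(RNAi)* cultures were left on the food for longer than the mock cultures in both replicates, and animals were judged mid-L4 by the shape of the vulva. By the methods of the study, both replicate 1 libraries match the same, earlier hour of an L4 time course that had been sequenced before, *xrn-2(RNAi)* replicate 2 matches a later one, and mock replicate 2 the latest. That order was read from the expression in these same libraries, so the differences described here are no independent evidence of it. Time is also confounded with the culture replicate: the replicates were prepared as separate samples, and larval time cannot be told apart from anything else that differed between them.

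In L4, the gonad of the hermaphrodite completes sperm production and turns to making oocytes, the vulva and uterus take their final shape, and the epidermis builds the adult cuticle beneath the larval one before the last molt. Cuticle collagens and the proteins of the temporary extracellular matrix that precedes each new cuticle are known to be made in waves, each at its own time in the molting cycle. Yolk proteins (vitellogenins) are made in the intestine of the adult hermaphrodite and are taken up by growing oocytes.

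The libraries held 41105706 to 48451504 reads counted in genes, and 16178 of 20380 genes passed the filter on low counts, while 4202 did not. A gene could pass through the replicate in which it was high. With edgeR's quasi-likelihood test and RNAi condition as a block, 0 genes were higher (0%) and 0 lower (0%) in replicate 2 at a Benjamini-Hochberg adjusted p under 0.05, and the smallest adjusted p was 0.52. This fit has 1 residual degree of freedom, which is the disagreement between both conditions in the difference between replicates. At an unadjusted p under 0.05, edgeR gave 1506 genes, of which 853 were higher (5.27% of those tested) and 653 were lower (4.04%). DESeq2 with the same design called 2400 genes, 1294 higher (8%) and 1106 lower (6.84%). With *xrn-2(RNAi)* replicate 2 left out and replicate as the only term, edgeR called 206 higher and 462 lower, and with any other library left out it called 0. No gene is therefore described as changed by the edgeR test, and the genes below are described by their values.

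For that description, a log2 fold change of replicate 2 over replicate 1 was taken in each condition from CPM (reads of a gene per 1000000 reads of a library, scaled by the TMM method), with 8 reads added. At least 2-fold higher in both conditions were 695 genes (4.3%), and at least 2-fold lower in both were 687 (4.25%). These counts have no test, since each condition has 1 library a side. Any difference in the same direction, however small, was found for 5112 genes upward (31.6%) and 5745 downward (35.5%). Both replicate 2 libraries lay above both replicate 1 libraries for 3503 genes (21.7%) and below both for 3629 genes (22.4%).

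The mock pair differed more than the *xrn-2(RNAi)* pair. The SD of the log2 fold change over all tested genes was 1.63 in mock and 0.78 in *xrn-2(RNAi)*, with medians of -0.06 and -0.01. In mock, 1825 genes reached 2-fold upward and 2587 downward, against 1167 and 1150 in *xrn-2(RNAi)*. Among the 695 genes higher in both conditions, the median log2 fold change was 3.05 in mock and 1.65 in *xrn-2(RNAi)*, and 590 differed more in mock. The mock median was 3.13 with the 82 genes at 0 reads in mock replicate 1 set to the bound that 3 reads allow. For 317 of the 695, the levels ran upward from mock replicate 1 over *xrn-2(RNAi)* replicate 1 and *xrn-2(RNAi)* replicate 2 to mock replicate 2. Among the 687 genes lower in both, the medians were -3.49 and -1.48, 587 differed more in mock, and 406 followed the reverse of that order. The mock median was -3.61 with the 26 genes at 0 reads in mock replicate 2 at their bound. The choice of the 695 and 687 genes already set the direction between the replicates in each condition. Neither order was counted over all tested genes, so the counts of 317 and 406 are no evidence of an order in time. The plot of both conditions' log2 fold changes places 4 of the gene lists described below among all tested genes.

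**Figure D1:**
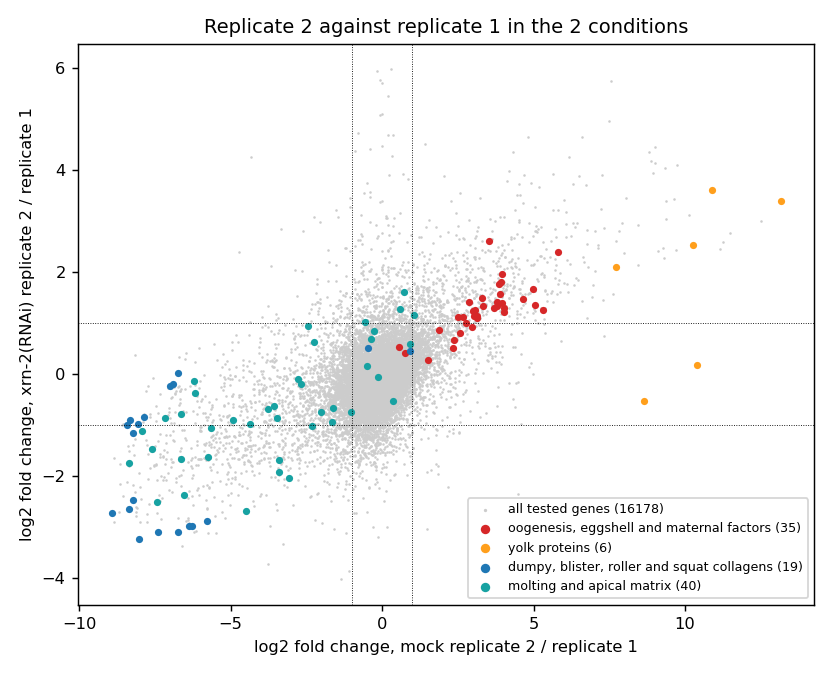
Log2 fold change of replicate 2 over replicate 1 in mock (x axis) and in xrn-2(RNAi) (y axis) for the 16178 tested genes (grey) and 4 gene lists (colours); dotted lines mark 2-fold. Oogenesis genes and 4 of the 6 yolk protein genes lie beyond 2-fold at the upper right or near it, the dumpy, blister, roller and squat collagens spread over the lower left, and the x axis spans more than the y axis.

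Genes of oogenesis were higher in replicate 2 in both conditions. Of the 35 genes listed for oocyte translational control, eggshell and maternal factors, 27 were at least 2-fold higher in both and 0 were lower, against 4.3% of all tested genes. The median log2 fold change was 3.28 in mock and 1.26 in *xrn-2(RNAi)*. All 35 had both replicate 2 libraries above both replicate 1 libraries, against 21.7% of all tested genes. At an unadjusted p under 0.05, edgeR gave 27 of them as higher, against 5.27% of all tested genes. DESeq2 called 25 of them higher, against 8%, while edgeR's adjusted test called 0. In these whole-animal libraries, more cells of a type and more RNA per cell cannot be told apart.

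Among the translational regulators of the growing oocyte, *oma-1*, which encodes a zinc finger protein needed for oocyte maturation, was measured at 29.5 CPM in mock replicate 1, 80.7 in *xrn-2(RNAi)* replicate 1, 189 in mock replicate 2 and 176 in *xrn-2(RNAi)* replicate 2. Both replicate 2 libraries were thus above both replicate 1 libraries, and the *xrn-2(RNAi)* library of replicate 1 was above the mock one. The log2 fold change in the fit was 1.90 (standard error 0.50, unadjusted p = 0.0231, edgeR's quasi-likelihood test across all genes). The gene for the PUF-family RNA-binding protein *puf-5* was at 8.37 and 70.8 CPM in the mock and *xrn-2(RNAi)* libraries of replicate 1 and at 270 and 226 CPM in those of replicate 2. *lin-41*, which encodes a TRIM-NHL protein that acts in oocyte growth as well as in larval timing, was at 21.6 and 84.1 CPM in replicate 1 and at 211 and 239 CPM in replicate 2. The oocyte genes shared the same order of libraries in replicate 1: the CPM in *xrn-2(RNAi)* exceeded that in mock for all 35. In replicate 2 the conditions lay closer, with *xrn-2(RNAi)* above mock for 12 of the 35. Neither count was taken over all tested genes, so neither is given as particular to oocyte genes. Of the 21 genes for RNA-binding, translational and germ plasm proteins, 16 were at least 2-fold higher in both conditions. The germ plasm gene *meg-1* had the highest fitted log2 fold change of the 35, at 4.26 (standard error 1.26), with 0.438 and 5.73 CPM in replicate 1 and 34.5 and 31.1 CPM in replicate 2. The most abundant by counts, *cey-2*, which encodes a cold-shock domain protein of the germline, was at 228 and 698 CPM in replicate 1 and at 1160 and 995 CPM in replicate 2, which is less than 2-fold in *xrn-2(RNAi)*.

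The eggshell genes lay alongside. Of 13 genes for eggshell layers and the egg-activation machinery, 10 were at least 2-fold higher in both conditions, with log2 fold changes of 0.56 to 5.30 in mock and 0.54 to 1.80 in *xrn-2(RNAi)*. *cpg-2*, which encodes a chondroitin proteoglycan of the eggshell, was at 44.8 CPM in mock and 300 CPM in *xrn-2(RNAi)* of replicate 1, and at 704 and 788 CPM in replicate 2. The lowest member was *mbk-2*, a kinase gene of the oocyte-to-embryo transition, with 168 and 233 CPM in replicate 1 and 248 and 339 CPM in replicate 2. The receptor by which oocytes take up yolk, *rme-2*, was at 20.6 and 105 CPM in replicate 1 and at 339 and 261 CPM in replicate 2. The groups of libraries do not overlap for any of these genes, against 21.7% of all tested genes with replicate 2 above in this way. Transcripts that mark the embryo were near 0: the summed level of *pes-10*, *end-1*, *end-3*, *med-1* and *tbx-37* was 0.206 CPM in mock and 1.42 CPM in *xrn-2(RNAi)* of replicate 1, and 0.163 and 1.63 CPM in replicate 2, and 2 of the 5 passed the filter.

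Yolk protein genes showed the widest range between libraries. The 6 *vit* genes summed to 79 CPM in mock and 1095 CPM in *xrn-2(RNAi)* of replicate 1, and to 63070 and 8072 CPM in replicate 2. Mock replicate 2 was highest by far, and the *xrn-2(RNAi)* library of replicate 1 was already above that of mock. Of the 6 genes, 4 were at least 2-fold higher in both conditions, with a median log2 fold change over the 6 of 10.33 in mock and 2.32 in *xrn-2(RNAi)*. The mock median was 10.33 also with *vit-5* at its bound. *vit-2* was at 11.2 and 281 CPM in replicate 1 and at 21514 CPM in mock and 3467 CPM in *xrn-2(RNAi)* of replicate 2. *vit-6*, which encodes a yolk protein of a separate subfamily, was at 24.1 and 715 CPM in replicate 1 and at 30098 and 4145 CPM in replicate 2. *vit-5* had 0 reads in mock replicate 1 and 1669 CPM in mock replicate 2, at least 21589-fold higher against a floor of 3 reads, while it was at 9.48 and 101 CPM in the *xrn-2(RNAi)* libraries. *vit-3* and *vit-4* were at least 2-fold higher in mock alone. *vit-3* was at 1.00 and 475 CPM in the mock libraries and at 5.30 and 3.62 CPM in replicates 1 and 2 of *xrn-2(RNAi)*. *vit-4* had 3 reads in mock replicate 1 and 348 CPM in mock replicate 2, a ratio of 4500 (95% exact interval 1540 to 21800, counting error only), against 2.23 and 2.56 CPM in *xrn-2(RNAi)*. The *vit-3*, *vit-4* and *vit-5* genes are closely similar in sequence, so that reads may be shared among them. With mock replicate 2 left out, the median of the 6 fitted log2 fold changes was 2.98, against 5.93 with all libraries.

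**Figure D2:**
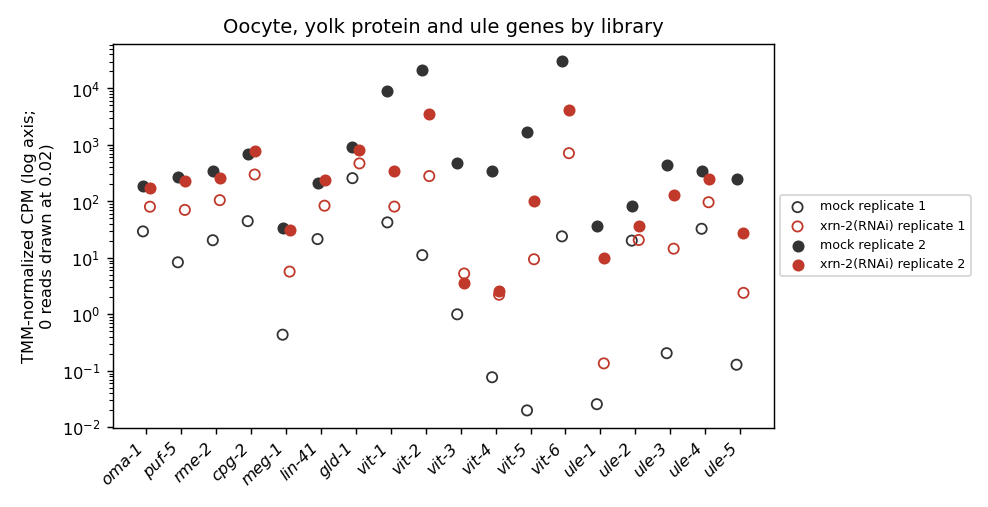
TMM-normalized CPM on a log axis in each of the 4 libraries (open circles, replicate 1; filled circles, replicate 2; black, mock; red, xrn-2(RNAi)) for 7 oocyte or germline genes, the 6 vit genes and 5 ule genes; a library with 0 reads is drawn at 0.02. Filled circles lie above open circles of the same colour for all but vit-3 in xrn-2(RNAi), which was at 5.30 CPM in replicate 1 and 3.62 CPM in replicate 2.

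The *ule* genes are named for lumenal expression in the uterus. Of the 12 genes highest by the smaller of both conditions' log2 fold changes, among those with a mean of at least 10 CPM, *ule-1* was at 0.0258 and 0.136 CPM in mock and RNAi libraries of replicate 1, which are 1 and 7 reads, and at 37.4 and 9.78 CPM in replicate 2. The ratio between the mock libraries was 1450 (95% exact interval 260 to 57400, counting error only). The other *ule* genes were named after their values were seen. *ule-3* was at 0.206 and 14.6 CPM in replicate 1 and at 438 and 128 CPM in replicate 2, and *ule-4* at 32.9 and 96.9 CPM against 345 and 252 CPM. *ule-5* was at 0.129 and 2.41 CPM against 248 and 27.9 CPM, and *ule-2*, the 1 of the 5 below 2-fold in *xrn-2(RNAi)*, at 20.3 and 20.8 CPM against 83.6 and 37.4 CPM. In all 5, both replicate 2 libraries were above both replicate 1 libraries, against 21.7% of all tested genes. As the 5 were named with their values known, that share is no fair comparison for them.

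The same 12 hold 4 genes that are known by their sequence names alone and lie next to each other, *ZK813.1*, *ZK813.2*, *ZK813.3* and *ZK813.7*. Their log2 fold changes were 7.57 to 9.34 in mock and 4.04 to 5.76 in *xrn-2(RNAi)*. *ZK813.2*, first of the 12, had 0 reads in mock replicate 1 and 5 in *xrn-2(RNAi)* replicate 1, against 1261 and 732 in replicate 2, which is at least 443-fold higher in mock. *Y62H9A.3* and *Y62H9A.4* had 0 reads in mock replicate 1, 52 and 57 reads in *xrn-2(RNAi)* replicate 1, 3407 and 3101 in mock replicate 2 and 1280 and 1141 in *xrn-2(RNAi)* replicate 2. *Y62H9A.5*, named after its values were seen, was at 0 and 1.22 CPM in replicate 1 and at 120 and 14.7 CPM in replicate 2. *K10C2.8*, *Y37D8A.19* and *nspb-12* were also among the 12. *nspb-12*, a nematode-specific peptide gene, was the one of these with its highest level in *xrn-2(RNAi)*, at 0.283 and 1.69 CPM in replicate 1 and at 11.8 and 27.9 CPM in the mock and *xrn-2(RNAi)* libraries of replicate 2. The remaining 2 of the 12, *col-143* and *fipr-3*, are given with the cuticle genes.

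Genes of the cuticle went in both directions. The collagens with dumpy, blister, roller or squat mutant phenotypes, which build the body cuticle, were lower: of 19 tested, 10 were at least 2-fold lower in both conditions and 0 higher, against 4.25% of all tested genes, with medians of -7.40 in mock and -1.14 in *xrn-2(RNAi)*. Their summed level was 19490 CPM in mock and 9716 CPM in *xrn-2(RNAi)* of replicate 1, and 100 and 6008 CPM in replicate 2. Mock replicate 2 held next to none of these transcripts, and *xrn-2(RNAi)* replicate 2 kept a level nearer to that of replicate 1. edgeR gave 6 of the 19 as lower at an unadjusted p under 0.05, against 4.04% of all tested genes. DESeq2 called 9 lower, against 6.84%, and neither gave any as higher.

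Within this list, collagens of different cuticle structures differed in the *xrn-2(RNAi)* pair more than in the mock pair. The 6 furrow collagens *dpy-2*, *dpy-3*, *dpy-7*, *dpy-8*, *dpy-9* and *dpy-10*, which mark the circumferential furrows between the annuli, had log2 fold changes of -8.03 to -5.78 in mock and of -3.22 to -2.88 in *xrn-2(RNAi)*. *dpy-7* was at 217 CPM in mock and 109 CPM in *xrn-2(RNAi)* of replicate 1 and at 0.651 and 11.6 CPM in replicate 2. *dpy-3* was at 103 and 80.7 CPM in replicate 1 and at 0.434 and 9.38 CPM in replicate 2. In *dpy-4*, *dpy-5* and *dpy-13* the mock values were alike, from -7.0 to -6.73, but those of *xrn-2(RNAi)* were from -0.22 to 0.03. *dpy-13* was at 2205 and 1496 CPM in replicate 1, and at 18 CPM in mock and 1320 CPM in *xrn-2(RNAi)* of replicate 2. The sqt and *rol* genes *sqt-1*, *sqt-2*, *sqt-3*, *rol-6* and *rol-8* were at -8.41 to -7.87 in mock and at -1.14 to -0.83 in *xrn-2(RNAi)*, the latter between both groups. *bli-1* and *bli-2*, which encode collagens of the struts in the adult cuticle, were lower in both. *bli-2* was at 1697 and 412 CPM in replicate 1 and at 3.31 and 62.1 CPM in replicate 2. *bli-1*, named after its values were seen, was at 1649 and 496 CPM in replicate 1 and at 4.83 and 79.1 CPM in replicate 2. *dpy-17* was the highest of the list, at 0.567 and 2.02 CPM in replicate 1 and 1.25 and 2.83 CPM in replicate 2, where the replicates overlap.

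**Figure D3:**
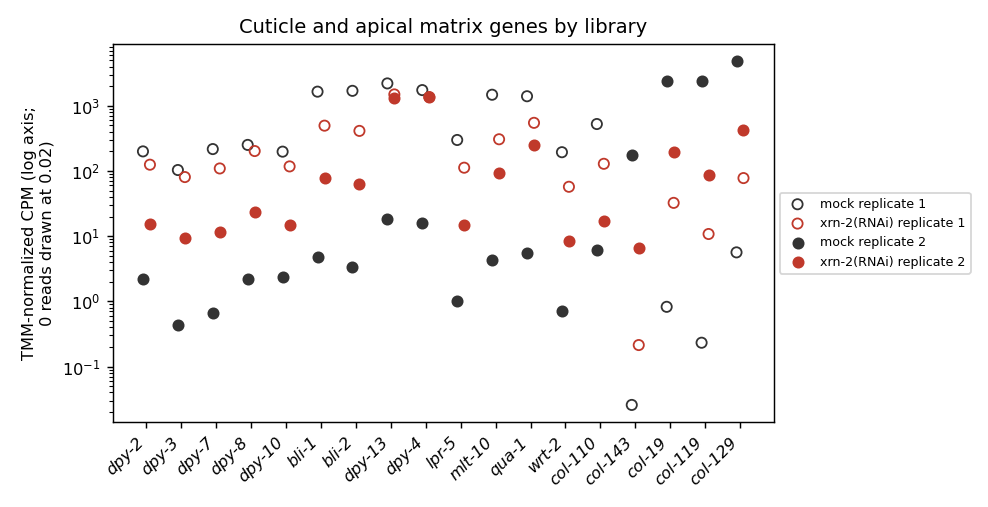
TMM-normalized CPM on a log axis in each of the 4 libraries (open circles, replicate 1; filled circles, replicate 2; black, mock; red, xrn-2(RNAi)) for 18 cuticle and apical matrix genes. From dpy-2 to col-110 the mock replicate 2 points lie below all others; from col-143 to col-129 they lie above all others.

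The matrix that is laid down before the new cuticle was lower as well. Of 40 tested genes of molting and apical matrix, 13 were at least 2-fold lower in both conditions and 1, *mup-4*, was at least 2-fold higher, against 4.25% and 4.3% of all tested genes, with medians of -3.25 in mock and -0.74 in *xrn-2(RNAi)*. *mup-4*, which encodes an apical attachment protein of the epidermis, was at 278 and 213 CPM in replicate 1 and at 571 and 480 CPM in replicate 2. *noah-1*, which encodes a zona pellucida domain protein of the precuticle, was at 686 and 561 CPM in replicate 1 and at 6.70 CPM in mock and 178 CPM in *xrn-2(RNAi)* of replicate 2, and *noah-2* at 605 and 417 CPM against 6.32 and 80.5 CPM. The lipocalin gene *lpr-3*, whose protein is a precuticle component, was at 314 and 243 CPM in replicate 1 and at 1.63 and 42.7 CPM in replicate 2. It neighbours *lpr-4*, *lpr-5* and *lpr-6*, and the 4 genes had log2 fold changes of -8.84 to -7.30 in mock and of -2.90 to -2.50 in *xrn-2(RNAi)*. *lpr-5* was at 299 and 112 CPM in replicate 1 and at 1.00 and 14.9 CPM in replicate 2. *mlt-10*, which is needed for molting, had the lowest fitted log2 fold change of the list, at -5.06 (standard error 2.53, unadjusted p = 0.124, edgeR). It was at 1478 and 307 CPM in replicate 1 and at 4.34 and 91.8 CPM in replicate 2. *mlt-7*, a peroxidase gene with a role in collagen crosslinking, went the other way, at 62.1 and 20.0 CPM in replicate 1 against 103 and 61.8 CPM in replicate 2, where *xrn-2(RNAi)* replicate 2 lay just under mock replicate 1. *noah-1*, *noah-2*, *lpr-3*, *lpr-4*, *lpr-6* and *mup-4* were named after their values were seen.

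Hedgehog-related and Patched-related genes, a family expanded in nematodes with many members in the epidermis, had members on both sides. Of 75 tested, 15 were at least 2-fold lower and 6 at least 2-fold higher in both conditions, against 4.25% and 4.3% of all tested genes. By any amount, 38 were lower and 18 higher in both, against 35.5% and 31.6% of all tested genes. The medians were -1.63 in mock and -0.23 in *xrn-2(RNAi)*. In the *xrn-2(RNAi)* pair alone, 17 were at least 2-fold lower and 15 at least 2-fold higher, against 1150 and 1167 of all 16178 tested genes. The warthog genes had the lowest median of all families with at least 10 tested genes, at -3.45 over the fitted log2 fold changes of 10 *wrt* genes. Their medians were -5.54 in mock and -0.59 in *xrn-2(RNAi)*, and 4 were at least 2-fold lower in both conditions, against 4.25% of all tested genes. The *wrt* family was picked by its low median, so this count follows in part from that choice. *wrt-2* was at 194 and 57.2 CPM in replicate 1 and at 0.706 and 8.40 CPM in replicate 2. *qua-1*, a hedgehog-related gene that acts in molting, was at 1402 and 548 CPM in replicate 1 and at 5.54 and 252 CPM in replicate 2. Among those higher, *grl-4* and *grl-21*, named after their values were seen, were at 2.42 and 2.01 CPM in mock replicate 1 and at 10.4 and 2.60 CPM in *xrn-2(RNAi)* replicate 1. In replicate 2, *grl-4* was at 56.6 CPM in mock and 121 CPM in *xrn-2(RNAi)*, and *grl-21* at 110 and 25.8 CPM. *grd-4*, with 1 and 3 reads in replicate 1 against 112 and 25 in replicate 2, had the highest fitted value of the list. *ptc-3*, a Patched gene, was at 762 and 319 CPM in replicate 1 and at 50.2 and 257 CPM in replicate 2, and *grl-16* at 587 and 344 CPM against 27.9 and 414 CPM, so that *grl-16* was lower in mock alone.

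Other collagens were higher. Of the 135 tested *col* genes, 39 were at least 2-fold higher in both conditions and 9 at least 2-fold lower, against 4.3% and 4.25% of all tested genes. A further 40 were at least 2-fold lower in mock but not in *xrn-2(RNAi)*, of which 4 were at least 2-fold higher there, and 12 were at least 2-fold higher in mock but not in *xrn-2(RNAi)*. In the mock pair as a whole, 49 *col* genes were at least 2-fold lower and 51 higher, against 2587 and 1825 of all 16178 tested genes. The median was 0.03 in mock and 0.64 in *xrn-2(RNAi)*, between quartiles of -2.84 and 3.63 in mock and of -0.16 and 1.45 in *xrn-2(RNAi)*. The median of the fitted values, 0.42, turned to -0.51 with *xrn-2(RNAi)* replicate 2 left out and was 0.95 without mock replicate 2 and 1.25 without *xrn-2(RNAi)* replicate 1, so it gives no direction for the family.

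Among the 39 higher collagens, 20 had a mean of at least 100 CPM, and 35 were higher in mock replicate 2 than in *xrn-2(RNAi)* replicate 2. *col-19*, a collagen gene known as a marker of the adult epidermis and named after its values were seen, was at 0.825 and 32.4 CPM in replicate 1 and at 2442 CPM in mock and 196 CPM in *xrn-2(RNAi)* of replicate 2. *col-119*, also named after its values were seen, was at 0.232 and 10.8 CPM in replicate 1 and at 2418 and 88.1 CPM in replicate 2. *col-129*, one of the most abundant by counts, was at 5.64 and 77.9 CPM against 4839 and 424 CPM. *col-143* had 1 read in mock replicate 1 (0.0258 CPM) and 0.214 CPM in *xrn-2(RNAi)* replicate 1, against 175 and 6.59 CPM in replicate 2, and the mock ratio was 6770 (95% exact interval 1220 to 268000, counting error only). In all 4 genes, mock replicate 2 was highest and mock replicate 1 lowest. Among the 9 lower collagens were *col-79*, *col-110*, *col-128* and *col-176*. *col-110* was at 525 and 128.9 CPM in replicate 1 and at 6.11 and 16.9 CPM in replicate 2, and *col-176* at 42.7 and 51 CPM against 3.12 and 6.35 CPM. *col-138*, one of the most abundant *col* genes by counts, was at 2761 and 1360 CPM in replicate 1 and at 27.2 CPM in mock and 1112 CPM in *xrn-2(RNAi)* of replicate 2.

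**Figure D4:**
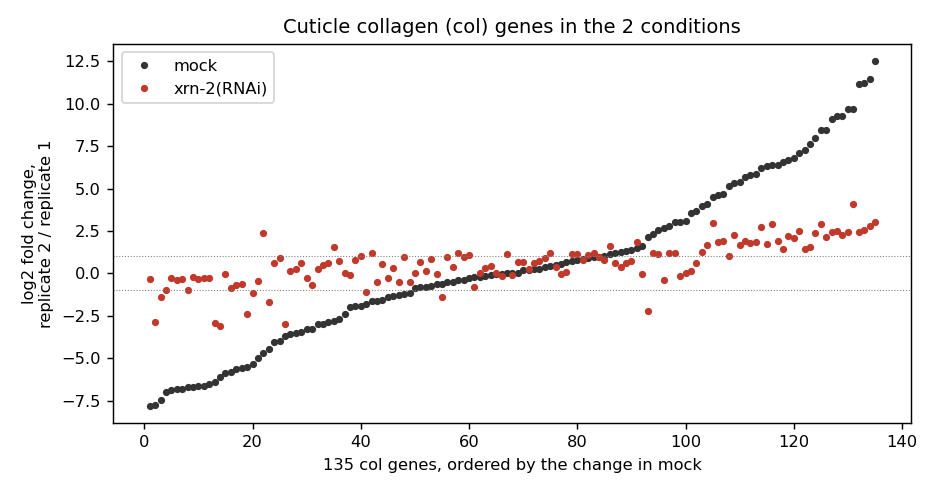
Log2 fold change of replicate 2 over replicate 1 for the 135 tested col genes, ordered by the value in mock (black), with the value in xrn-2(RNAi) in red; dotted lines mark 2-fold. The mock values run from -7.79 to 12.51 and the xrn-2(RNAi) values from -3.08 to 4.10, and most of the genes at the left end lie between the dotted lines in xrn-2(RNAi).

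The fipr and *abu* genes had the highest medians among families of at least 10 tested genes. The *fipr* genes encode small secreted peptides related to fungus-induced proteins. Of 15 tested, 12 were at least 2-fold higher in both conditions, against 4.3% of all tested genes, with a median fitted log2 fold change of 3.99. *fipr-3* was at 0.979 and 0.777 CPM in replicate 1 and at 57.4 and 14.5 CPM in replicate 2, which gave a log2 fold change of 5.04 (standard error 0.63, unadjusted p = 0.00202, edgeR). *fipr-21*, named after its values were seen, was lower in both, at 417 and 167 CPM in replicate 1 and at 198 and 86.6 CPM in replicate 2. The *abu* genes encode glutamine- and asparagine-rich proteins of which several are known in the pharyngeal cuticle. Of 12 tested, 8 were at least 2-fold higher in both, against 4.3% of all tested genes, with a median of 2.56. Both families were picked by their medians, so their counts past 2-fold follow in part from that choice. The pharynx markers *myo-1*, *myo-2*, *pha-4*, *tnt-4* and *ceh-22* summed to 436 CPM in the earlier mock library, 421 CPM in the earlier *xrn-2(RNAi)* library, 1006 CPM in the later mock library and 637 CPM in the later *xrn-2(RNAi)* library. Of these 5 markers, 3 were higher in both conditions, and their part in the *abu* values was not tested. *abu-10*, named after its values were seen, was at 1.03 and 14.8 CPM in replicate 1 and at 20.2 and 74.0 CPM in replicate 2. Both replicate 2 libraries were above both replicate 1 libraries there. *abu-11*, named in the same way, was at 4.25 and 49.4 CPM in replicate 1 and at 22.9 and 138 CPM in replicate 2, so that the replicates overlap, and *abu-12* at 195 and 63.4 CPM against 1.3 and 40.1 CPM.

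Of the other families with at least 10 tested genes, the *mltn* genes had the second lowest median of the fitted log2 fold changes, at -2.55. Of 11 *mltn* genes, 4 were at least 2-fold lower in both conditions, against 4.25% of all tested genes, a count that follows in part from picking families by their medians. Their medians were -3.92 in mock and -0.21 in *xrn-2(RNAi)*. The *dpy*, *grl*, *ptr* and *nspc* families followed, with medians of -1.57, -1.31, -1.09 and -1.01. On the higher side, after *fipr* and *abu*, the fitted medians were 0.98 for the F-box family *fbxb*, 0.89 for *msp*, 0.69 for *ssp* and 0.61 for *pals*. These families had medians of 0.53, 1.34, 0.79 and -0.48 in mock and of 0.45, 0.3, 0.32 and 2.07 in *xrn-2(RNAi)*.

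Sperm genes showed smaller differences than oocyte genes. Major sperm protein genes encode the cytoskeletal protein of nematode sperm and are near-identical, so that their reads may be shared. Of the 30 genes, 18 were tested, and 2 of them were at least 2-fold higher in both conditions, against 4.3% of all tested genes. The medians were 1.34 in mock and 0.30 in *xrn-2(RNAi)*. By any amount, 17 of the 18 were higher in both conditions and 1 lower, against 31.6% and 35.5% of all tested genes. In the mock pair, 15 of the 18 were at least 2-fold higher, against 1825 of all 16178 tested genes. *msp-64* was at 17.2 and 33.7 CPM in replicate 1 and at 47.7 and 36.7 CPM in replicate 2. Of 45 other genes of spermatogenesis and sperm function, 1 was higher and 0 lower by 2-fold in both, against 4.3% and 4.25% of all tested genes. *ssq-2*, one of the most abundant by counts, was at 114 and 321 CPM in replicate 1 and at 423 and 386 CPM in replicate 2. *fog-3*, which acts early in the choice of the sperm fate, had the lowest fitted value of the list, at 7.06 and 9.85 CPM in replicate 1 and at 2.36 and 4.98 CPM in replicate 2. *ssp-19*, the 1 gene at least 2-fold higher, was at 5.10 and 10 CPM in replicate 1 and at 21.3 and 21 CPM in replicate 2. The medians of the 45 were 0.49 in mock and -0.14 in *xrn-2(RNAi)*, so that the conditions differ in sign.

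Germline genes that act before oocyte growth differed less than those of the oocyte. Of 25 genes of the meiotic axis, synapsis and recombination, 0 were higher or lower by 2-fold in both conditions, against 4.3% and 4.25% of all tested genes. The medians were 0.65 in mock and 0.09 in *xrn-2(RNAi)*. By any amount, 20 of the 25 were higher in both conditions and 0 lower, against 31.6% and 35.5% of all tested genes. Of 19 genes of germline stem cells and P granules, the RNA-protein granules of germ cells, 0 were at least 2-fold higher in both and 11 were so in mock alone, with medians of 1.17 and 0.23. Over all 16178 tested genes, 1825 were at least 2-fold higher in mock, whatever their value in *xrn-2(RNAi)*. By any amount, 14 of the 19 were higher in both conditions and 0 lower. *gld-1*, which encodes a translational repressor of the meiotic germline, was at 258 and 471 CPM in replicate 1 and at 902 and 813.06 CPM in replicate 2. *glh-2*, a P granule helicase gene, was at 30.1 and 92.3 CPM in replicate 1 and at 141 and 130 CPM in replicate 2. Of 29 genes of DNA replication and cell cycle, 27 were higher in both conditions by any amount, against 31.6% of all tested genes, but 0 by 2-fold in both. DESeq2 called 13 of them higher, against 8% of all tested genes. The B-type cyclin gene *cyb-3* was at 69.8 and 133 CPM in replicate 1 and at 251 and 243 CPM in replicate 2. The 6 tested genes *mcm-2* to *mcm-7* of the replicative helicase had log2 fold changes of 0.73 to 1.42 in mock and of 0.45 to 0.71 in *xrn-2(RNAi)*.

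**Figure D5:**
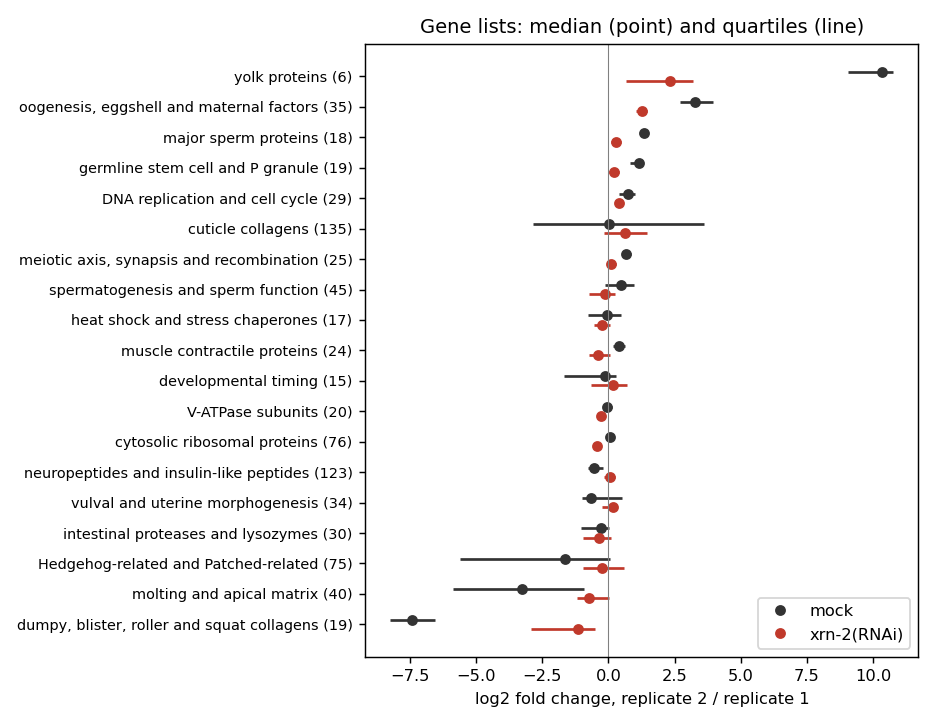
Median (points) and quartiles (lines) of the log2 fold change of replicate 2 over replicate 1 in mock (black) and xrn-2(RNAi) (red) for the gene lists, with the number of tested genes in parentheses. The yolk and oogenesis lists lie highest, the dumpy, blister, roller and squat collagens lowest, and the mock points lie farther from 0 than the red ones in these.

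Genes of developmental timing included members on both sides. The heterochronic pathway times the change from larval to adult fates in the epidermis. Of 15 genes, *lin-41* was at least 2-fold higher in both conditions, while *lin-42* and *mab-10* were at least 2-fold lower. The shares over all tested genes were 4.3% and 4.25%. *lin-42*, the worm period homolog, whose transcript is known to cycle with the molts, was at 357 and 192 CPM in replicate 1 and at 6.43 and 62.6 CPM in replicate 2. *mab-10*, a transcriptional cofactor gene that acts with *lin-29* in the larval-to-adult switch, was at 72.2 and 42.9 CPM in replicate 1 and at 18.6 and 19.1 CPM in replicate 2. *lin-29* itself was at 80.8 and 36.3 CPM against 24.3 and 21.4 CPM. *blmp-1*, a transcription factor gene of the same period, was at 132 and 66.1 CPM against 42 and 34.7 CPM. In these 4 genes, both replicate 2 libraries were below both replicate 1 libraries, against 22.4% of all tested genes. The 4 were picked by their values, so that share is no comparison for them. Over the 15 genes of the list, 5 were higher and 5 lower in both conditions by any amount, against 31.6% and 35.5% of all tested genes. *mab-10*, *lin-29* and *blmp-1* were named after their values were seen.

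Genes of vulval and uterine morphogenesis had 0 of 34 genes higher and 1 lower by 2-fold in both conditions, against 4.3% and 4.25% of all tested genes. *lin-3*, which encodes the epidermal growth factor that induces the vulva, was at 8.01 and 17.8 CPM in replicate 1 and at 29.8 and 31.2 CPM in replicate 2. The 1 lower gene was *nhr-113*, a nuclear hormone receptor gene, with 4.05 and 2.76 CPM in replicate 1, 0 reads in mock replicate 2 and 0.875 CPM in *xrn-2(RNAi)* replicate 2, which is at least 49.7-fold lower in mock. *sqv-5*, which encodes a glycosyltransferase of chondroitin synthesis, was at 93.9 and 85.3 CPM against 167 and 142.9 CPM.

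Of the 12 lowest genes by the ranking used above for the highest, 3 were not cuticle or matrix genes. *acox-1.2*, which encodes an acyl-CoA oxidase of peroxisomal beta-oxidation, was first of the 12. It was at 242 CPM in mock and 57.8 CPM in *xrn-2(RNAi)* of replicate 1 and at 17.8 and 4.21 CPM in replicate 2. The log2 fold change was -3.75 in mock and -3.72 in *xrn-2(RNAi)*, and -3.77 in the fit (standard error 0.25, unadjusted p = 0.000228, adjusted p = 0.52, edgeR). The cytochrome P450 gene *cyp-35A3* was at 135 and 11.1 CPM in replicate 1 and at 1.66 and 1.14 CPM in replicate 2, and *F18C5.5* at 121 and 15.2 CPM against 1.06 and 1.3 CPM. The remaining 9 of the 12 were the cuticle and matrix genes *dpy-2*, *dpy-3*, *dpy-7*, *dpy-8*, *dpy-10*, *col-110*, *col-128*, *col-176* and *lpr-5*.

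Lists of general cell functions and other tissues had few or no genes that differed by 2-fold in both conditions. Of 76 cytosolic ribosomal protein genes, 0 were higher or lower by 2-fold in both, against 4.3% and 4.25% of all tested genes. Their medians were 0.05 in mock and -0.41 in *xrn-2(RNAi)*. All 76 were lower in the *xrn-2(RNAi)* pair, with log2 fold changes of -0.83 to -0.16, and their sum there was 119300 CPM in replicate 1 and 90120 CPM in replicate 2. The median over all tested genes in that pair was -0.01. None of 24 muscle contractile genes differed by 2-fold in both, with medians of 0.42 and -0.40. Nor did any of 20 V-ATPase subunit genes, with medians of -0.04 and -0.26. The pharyngeal myosin gene *myo-2* had the highest fitted value of the muscle list, at 163 and 187 CPM in replicate 1 and at 468 and 318 CPM in replicate 2, and the troponin gene *tni-1* the lowest, at 127 and 72.7 CPM against 82.5 and 28.8 CPM. Of 123 neuropeptide and insulin-like genes, 3 were higher and 1 lower by 2-fold in both, against 4.3% and 4.25% of all tested genes. *nlp-28*, of a cluster known for antimicrobial peptides in the epidermis, was at 0.309 and 0.291 CPM in replicate 1 and at 8.31 and 1.44 CPM in replicate 2. Of 30 intestinal protease and lysozyme genes, *asp-13* and *lys-2* were at least 2-fold lower in both, against 4.25% of all tested genes. *lys-2*, a lysozyme gene, was at 286 and 387 CPM in replicate 1 and at 133 and 26.5 CPM in replicate 2. Of 17 heat shock genes, *hsp-17* was at least 2-fold lower in both, against 4.25% of all tested genes. It was at 88.7 and 76.2 CPM in replicate 1 and at 16.7 and 23.1 CPM in replicate 2. *hsp-43* had the highest fitted value, at 17.4 and 84.6 CPM against 187 and 129.03 CPM. *asp-13* and *hsp-17* were named after their values were seen.

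Marker lists of 5 genes each were read beside these results. The oocyte markers *oma-1*, *oma-2*, *rme-2*, *puf-5* and *cpg-2*, which also stand in the oogenesis list, were at least 2-fold higher in both conditions, 5 of 5. The summed levels of the neuronal markers were 202 to 241 CPM over the 4 libraries and those of body wall muscle 7237 to 12810 CPM. The hypodermal markers, of which 3 are collagens of the list above, summed to 3432 and 2304 CPM in replicate 1 and to 161 and 1775 CPM in replicate 2. By any amount, 3 of the 5 were lower in both conditions, the collagens *dpy-7*, *rol-6* and *dpy-13*, and 0 were higher. The highest log2 fold change of the 5 in mock was 0.68. *lin-26*, which is not a collagen gene, was at 102 and 90.9 CPM in replicate 1 and at 90.4 and 101 CPM in replicate 2. Sperm markers summed to 181 and 307 CPM in replicate 1 and to 350 and 312 CPM in replicate 2, and intestinal markers to 1764 and 1490 CPM against 3586 and 1211 CPM. Germline markers summed to 1322 and 1832 CPM in replicate 1 and to 2530 and 1981 CPM in replicate 2. For this sum, as for that of the pharynx markers, both replicate 2 libraries were above both replicate 1 libraries. By any amount, 2 of the 5 germline markers were higher in both conditions and 0 were lower. Their median log2 fold change was 0.92 in mock and -0.02 in *xrn-2(RNAi)*. In *xrn-2(RNAi)* the values ran from -0.63 for *glh-1* to 0.79 for *gld-1*, and *him-3* was at -0.15. The 10 genes with the most reads took 9.75% of the counts in mock replicate 2 and 4.69% to 5.27% in the other libraries. The part of these differences in the results was not tested.

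The targeted gene was measured in every library. *xrn-2* was at 103 CPM in mock and 113.3 CPM in its RNAi counterpart of replicate 1, and at 161 and 122 CPM in replicate 2. Its log2 fold change between the replicates was 0.38 (standard error 0.28, unadjusted p = 0.252, edgeR). Its level was thus not lower upon RNAi against it in replicate 1, but was lower in replicate 2, and the conditions are given as labelled. The study reports that *xrn-2* mRNA accumulates when XRN2 is inactivated, and the part of this in these levels was not tested.

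The conditions also differed in direction for some genes. By at least 2-fold in each condition, 87 genes were lower in mock and higher in *xrn-2(RNAi)*, and 26 the reverse. Of these, 47 had a mean of at least 10 CPM. *acs-2*, which encodes an acyl-CoA synthetase of fatty acid oxidation, was at 23.9 CPM in mock and 1.79 CPM in *xrn-2(RNAi)* of replicate 1 and at 1.00 and 37.6 CPM in replicate 2. *tag-297* was at 157 and 213 CPM in replicate 1 and at 7.49 and 432 CPM in replicate 2. Of the *pals* genes, a nematode family of which many members respond to intracellular infection, 26 were tested, with medians of -0.48 in mock and 2.07 in *xrn-2(RNAi)*. An interaction of condition and replicate leaves no residual degree of freedom, so these differences were not tested.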

How the data were processed

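Poly(A) RNA of whole animals was sequenced by the study from TruSeq libraries, 1 from each of 4 cultures. The authors deposited raw counts per gene, made by aligning reads to ce10 with QuasR (spliced alignment) and counting those that overlap exons of WS220 genes; the use of strand in counting is not given in the sources used here. Samples were grouped by their titles. Whether the replicates are more than separate samples of a condition is not stated. The 1 residual degree of freedom of the fit is the disagreement between both conditions' replicate changes, moderated across genes. P-values and standard errors therefore measure that disagreement and not the spread between cultures of a condition.

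The test was that of edgeR 4.0.16 under R 4.3.3 (glmQLFit, glmQLFTest, TMM, filterByExpr, Benjamini-Hochberg), with RNAi condition as a block and replicate 2 against replicate 1. DESeq2 1.42.0, other scalings, no filter, no block and leaving out each library were alternatives. A standard error was taken as the size of the log2 fold change over the root of its F statistic. Log2 fold changes within a condition used TMM-normalized CPM with 8 reads added. The smallest p of an exact permutation test (two-sided) with 2 libraries a side is 0.333, and none was made. Totals were 41105706 to 48451504 reads, so that depth limits only low genes. Counts are not corrected for duplicates, and intervals and the 3-read floor cover counting error only. Names matched 19179 of 20380 gene identifiers. The members and gene lists were chosen with earlier results of these data known. Genes were named by a fixed rule: with none past the test, the 12 highest and 12 lowest by the smaller of both conditions' log2 fold changes at a mean of at least 10 CPM; from each list the highest, lowest and the 2 most abundant by counts; the 8 largest opposite differences; *xrn-2*; and the 6 highest and 6 lowest families of at least 10 genes. Members of this rule near 0 are given through their lists. The time course used for staging was not analysed here.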

Additional observations from a re-analysis of the deposited data

Results flagged for a closer look

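In 8 genes, the mock pair and the *xrn-2(RNAi)* pair differed at least 2-fold in opposite directions, with the largest gaps between both log2 fold changes among genes of at least 10 CPM on average. Each condition has 1 library a side, so the difference between the conditions was not tested. The gap, *xrn-2(RNAi)* minus mock, was 8.61 for *acs-2*, which encodes an acyl-CoA synthetase, 7.11 for the collagen gene *col-41* and -6.84 for the cytochrome P450 gene *cyp-13A6*. It was 6.18 for *pals-39* and 5.32 for *pals-6*, 5.80 for the chitinase gene *cht-1*, 5.37 for *tag-297* and 5.11 for *ZK84.1*. In 7 of the 8, mock replicate 2 was lowest and *xrn-2(RNAi)* replicate 2 highest. *col-41* was at 8.14 and 9.42 CPM in the mock and *xrn-2(RNAi)* libraries of replicate 1 and at 0.136 and 50.5 CPM in replicate 2. *cht-1* was at 6.65 and 9.40 CPM in replicate 1 and at 0.353 and 41.7 CPM in replicate 2. *pals-6* was at 2.34 and 8.23 CPM in replicate 1 and at 0.353 and 71.0 CPM in replicate 2. *cyp-13A6* was the exception, at 1.78 and 12.8 CPM in replicate 1 and at 44 and 2.38 CPM in replicate 2.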

How the results depend on the processing

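No paired analysis was possible because the replicate number is itself the factor compared, and the libraries of a number differ in RNAi condition, which is the block. The 0 calls of edgeR in either direction held under median-of-ratios and total-count scaling, without the filter and without the condition block. DESeq2 called 1294 higher and 1106 lower. With a library left out, the condition block is dropped as well, since no residual degree of freedom would remain with it, and the lone library of a side is assumed to vary like the others: edgeR then called 0 to 206 higher and 0 to 462 lower, the upper ends without *xrn-2(RNAi)* replicate 2. With 4-fold in place of 2-fold, 201 genes were higher and 116 lower in both conditions. Counts for 1 condition, added after the data were seen, were 1825 and 2587 for the mock pair, 1167 and 1150 for the *xrn-2(RNAi)* pair, and other scalings, a pseudocount of 1 read and no filter kept the counts in both conditions within 1.5-fold. The counts in both conditions cannot be had with a library left out. The median of the *col* genes ranged from -0.51 to 1.25 over the left-out libraries. Left out of the following are the 8 genes of opposite direction, for which no fitted value is given and whose sign differs between the conditions by their choice. Of 94 other genes given with values of their own, 92 kept their sign in all edgeR and DESeq2 fits, and DESeq2 called 70. The exceptions were *dpy-17*, which ranged from -0.0035 to 1.85 over the left-out libraries, and *abu-11*, from -0.18 to 4.24. The 94 were largely named by ranks of these values or after their values were seen, which favours both counts. They are no measure over all genes, of which DESeq2 called 2400 of 16178 tested. Among the 94, 3 genes had the opposite sign to the fit in the *xrn-2(RNAi)* libraries alone, where *vit-3* was at -0.53, *dpy-4* at 0.03 and *grl-16* at 0.27. The cause of these differences was not tested.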
